A study of Mus musculus with 9 samples.

Results

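The genes described here are 49 genes of DNA replication and mitosis, measured by RNA-seq in αTC1 cells with and without the EZH2 inhibitor EPZ011989. They were the rows of the deposited count table whose symbol stood in a fixed list of 50 names, of which 1 ("Foxm1-none") is the name of no gene. The table held 33212 rows, 14754 of them with enough counts to be tested, and all 49 genes were among these. The list was split into 23 genes that act in S phase or at its start and 26 genes that act in mitosis, and the 2 groups were kept apart. αTC1 is a mouse pancreatic alpha cell line derived from a tumour in which the SV40 T antigen was driven in glucagon-producing cells, and its cells make glucagon. EPZ011989 inhibits EZH2, the methyltransferase of Polycomb repressive complex 2, which places methyl marks on lysine 27 of histone H3. Cells were kept with DMSO (5 libraries) or with 4 µM EPZ011989 (4 libraries), each for 7 days, so all libraries come from 1 cell line that carries the viral oncogene. The labels call the libraries biological replicates but do not say whether they came from separate cultures, so the p-values here reflect only how far these libraries vary, which may be technical.

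A cell copies its DNA once per division. In late M phase and G1 the origin recognition complex, Cdc6 and Cdt1 load the Mcm2 to Mcm7 helicase, cyclin E with Cdk2 starts S phase, and Cdc45 and the GINS complex switch the helicase on for the polymerases. Cyclin B with Cdk1 then starts mitosis, kinases and kinesins build the spindle, and the anaphase-promoting complex with Cdc20 separates the chromosomes once the spindle checkpoint is satisfied. Genes of the first group are known targets of E2F transcription factors, which RB holds back in resting cells, and genes of the second are known targets of the DREAM and MuvB complexes, which bind the CHR element. The SV40 T antigen binds RB and its relatives, which is background for every library here.

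Total counts per library were 60274140 to 74651782. The first principal component held 65.3% of the variance of genes of at least 1 CPM, and the second held 16.6%, with EPZ011989 library 2 at 40.3 and EPZ011989 library 4 at -29.4 on it. Glucagon was at 19279.9 ± 804 and 18633 ± 2338 CPM in the control and treated libraries (CPM, counts scaled to library sizes that were corrected with TMM factors; adjusted p = 0.778, edgeR). The beta cell genes Ins1 and Pdx1 had no count in any library, and Ins2 was at 0.653 ± 0.243 and 4.85 ± 1.46 CPM in the control and treated libraries. Markers of other cell types were scarce, but several were higher with EPZ011989: the 11 fibroblast and stellate markers summed to 7.73 to 10.7 CPM in DMSO and 33.8 to 45.8 CPM with EPZ011989, and the 8 endothelial markers to 0.845 to 1.92 and 3.86 to 4.65 CPM. Of those with enough counts to be tested, 5 of 7 and 3 of 4 rose. The macrophage markers went from 5.13 to 7.503 CPM up to 8.48 to 10.7 CPM (1 of 4 tested rose) with Fcgr1 at 0, the ductal markers from 19.3 to 24.9 CPM up to 33.3 to 38.1 CPM (1 of 5 rose and 1 fell) with Cftr at 0, and the acinar markers from 9.21 to 13.03 CPM down to 6.15 to 7.98 CPM (1 of 2 fell) with Prss1, Ctrb1, Pnlip and Amy2a2 at 0. The part of these genes in the values below was not tested.

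With all 9 libraries, 4 of the 49 genes were called. Cdc25c, Nusap1 and Cdk2 rose, Rrm1 fell, and the other 45 did not pass the test (edgeR's quasi-likelihood F test, Benjamini-Hochberg adjusted p under 0.05 over 14754 genes). The 4 calls are 8.16% of the genes, against a background of 24.1% of all genes tested that were called in either direction, 16.2% higher and 7.96% lower. Among the 9344 genes of at least 10 CPM, the range of expression in which every one of the 49 lies (13.9 to 867 CPM), 21.3% were called, 9.87% higher and 11.4% lower. Over all genes, 2388 were called higher and 1174 lower, a split that was 2735 and 776 with upper-quartile scaling. The number called depended on the setting, among the 49 and over all genes. Of the 49, 8 were called with upper-quartile scaling, 9 with library size alone and 11 with a trend on transcript length removed. Without EPZ011989 library 2, 15 were called (19.7% of all genes tested were then called higher and 15.9% lower). Only 1 was called without EPZ011989 library 1 or 3 or any 1 of DMSO libraries 1 to 4. Over all genes, library size alone gave 2685 higher and 865 lower. Removing the length trend gave 2811 and 1821 (13.5% and 18.1% of the genes of at least 10 CPM). The omissions that left 1 call gave 1861 to 2051 higher and 781 to 1009 lower over all genes. The ratio of mean levels, EPZ011989 over DMSO, lay between 0.867 and 1.301 for all 49 genes. The 95% interval of the change stayed within 1.5-fold in either direction for 47 of the 49 genes (Cenpf and Cdc20 reached beyond it). Because these are bulk libraries, fewer cells in a phase and less RNA per cell cannot be told apart.

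The changes of the mitosis genes were centred above those of the S phase genes, which is given as a description. The 26 mitosis genes had a median log2 fold change of 0.16, and 23 of them lay above 0. The 23 S phase genes had a median of 0.01, with 14 above 0. The median over all genes tested was 0.03, with 54.2% above 0, and over the genes of at least 10 CPM it was -0.03, with 43.4% above 0. These shares are descriptions, since genes of a common programme move together and are not replicates. At an unadjusted p under 0.05 (edgeR) stood 11 of the 26 mitosis genes and 2 of the 23 S phase genes. So did 5174 of the 14754 genes tested and 3054 of the 9344 genes of at least 10 CPM. The summed level of the 26 mitosis genes was 5741, 5536, 5358, 5605 and 5434 CPM in the DMSO libraries and 6053, 6646, 6078 and 5750 CPM in the EPZ011989 libraries. Each treated library was above each control, but library 4 only just (5750 against 5741 CPM in DMSO library 1), and a sum weighs abundant genes most. Gene by gene, 15, 15, 16 and 13 of the 26 lay above every control in EPZ011989 libraries 1 to 4. Below every control lay 2, 5, 3 and 7. Such counts per library were not made over all genes, so they cannot be set against a background. The summed level of the 23 S phase genes was 4464, 4509, 4357, 4472 and 4426 CPM in the DMSO libraries and 4436, 4243, 4246 and 4545 CPM in the EPZ011989 libraries, which lay on both sides of the controls.

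**Figure D1:**
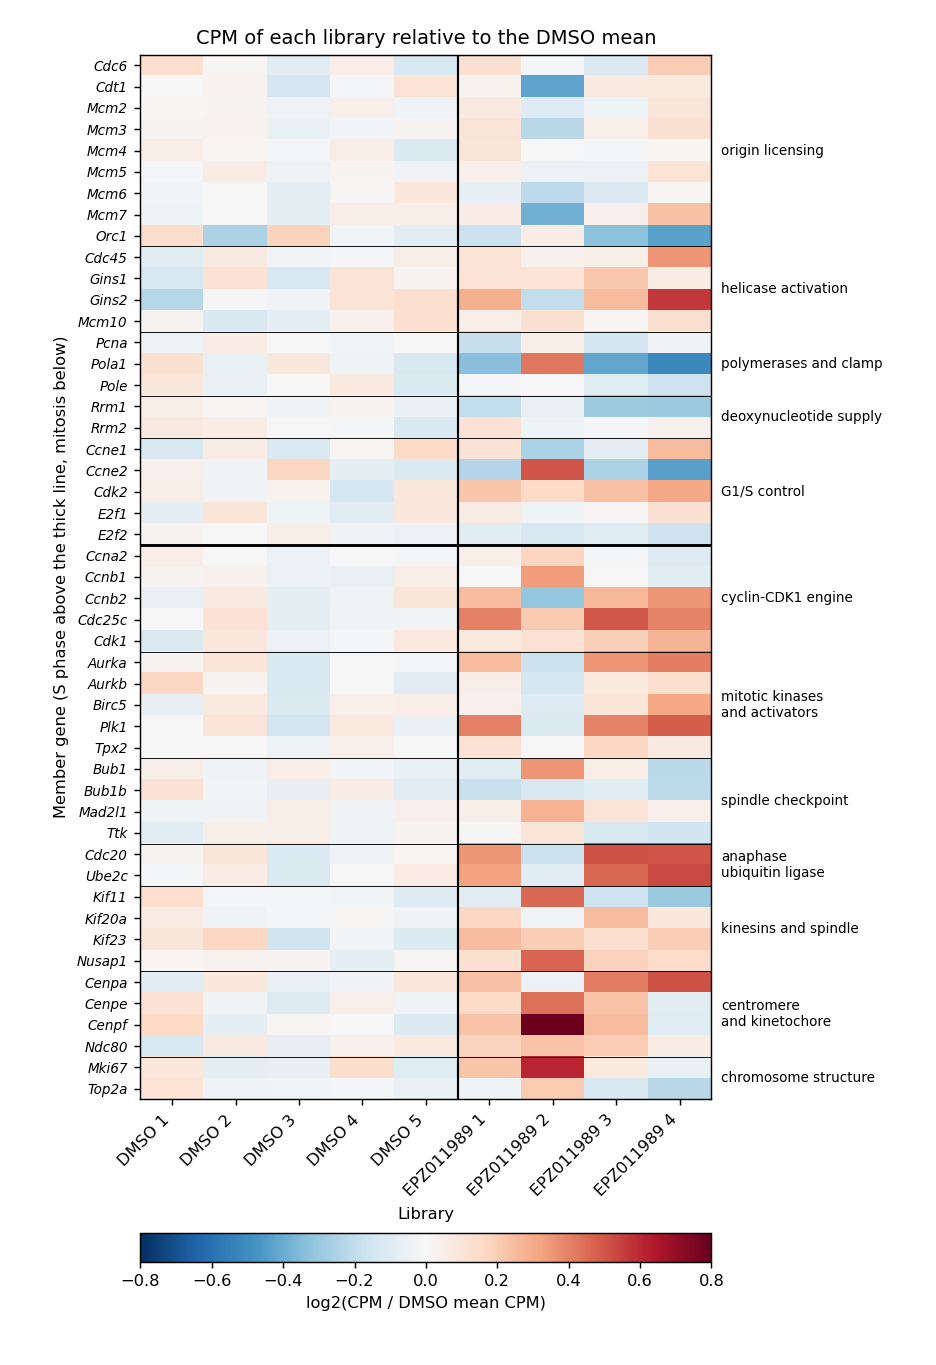
Level of each of the 49 genes (rows, by role) in each of the 9 libraries (columns), as the log2 of its CPM over the DMSO mean. Red is above and blue below that mean. Above the thick line the S phase genes show both colours in the EPZ011989 libraries. Below it most mitosis genes are red in each EPZ011989 library, with median values of 0.14, 0.15, 0.18 and 0.08 in libraries 1 to 4. Library 2 is often apart from the others.

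The promoters of the 2 groups held different motifs, a property read from the genome and not from the expression values. In the RefSeq promoter table (GRCm38.p6, 250 bases before to 50 after each start), 39 of the 49 genes were found, 18 of S phase and 21 of mitosis. 3 kinds of motif were searched on both strands: an E2F site (TTTCGCGC, TTTGGCGC, TTTCCCGC or TTTGCCGC), the CHR core TTTGAA, and the CCAAT box. An E2F match was present in 10 of 18 S phase promoters (55.6%, exact Clopper-Pearson 95% interval 30.8 to 78.5%) and in 1 of 21 mitosis promoters (4.76%), that of Cdk1. Of the promoters of genes of at least 10 CPM, 4.75% held it, and of all 27025 promoters 2.32%. The CHR core was present in 15 of 21 mitosis promoters (71.4%, interval 47.8 to 88.7%) and in 2 of 18 S phase promoters (11.1%), those of Mcm2 and Cdc45. It was in 11.2% of the promoters of genes of at least 10 CPM and in 18.1% of all. CCAAT was common to both groups, in 14 of 18 (77.8%) and 17 of 21 (81.0%), against 39.9% and 37.9% of these backgrounds. A single overlap joined matches to different motifs. A match says only that these letters are in the window.

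**Figure D2:**
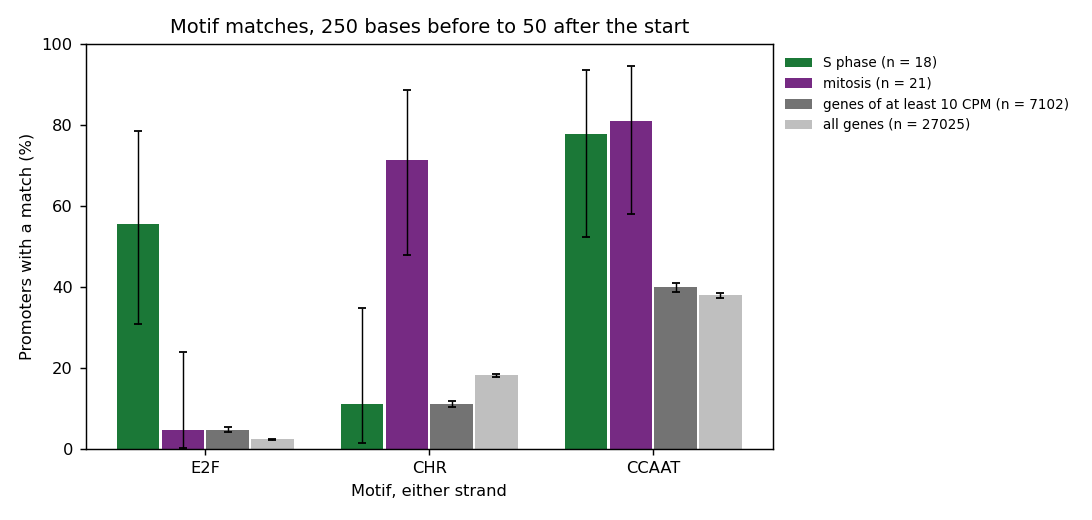
Share of promoters (vertical axis, percent) with at least 1 match to each motif, for the 18 S phase genes, the 21 mitosis genes, the genes of at least 10 CPM and all genes, with exact 95% intervals as error bars. The E2F bar is tall only for the S phase genes (55.6%) and the CHR bar only for the mitosis genes (71.4%), while both are tall for CCAAT.

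Upstream stretches are shown for 4 S phase genes that span the licensing machinery and the G1/S kinase. Each is the 160 bases before the start, 5′ to 3′ on the gene's strand, from RefSeq (GRCm38.p6), with E2F matches in capitals. In Mcm5 and in Mcm6 a pair of overlapping matches forms 1 longer run, and Cdk2 is the S phase gene that rose.
Mcm5, chr8:75109349-75109508, plus strand: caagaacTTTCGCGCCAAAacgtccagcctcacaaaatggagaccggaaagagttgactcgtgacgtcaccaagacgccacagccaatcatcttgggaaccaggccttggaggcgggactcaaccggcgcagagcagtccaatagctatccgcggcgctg
Mcm6, chr1:128359706-128359865, minus strand: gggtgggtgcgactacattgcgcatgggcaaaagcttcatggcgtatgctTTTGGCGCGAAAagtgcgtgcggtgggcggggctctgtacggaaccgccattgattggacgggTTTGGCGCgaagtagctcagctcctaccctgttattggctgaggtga
Orc1, chr4:108579294-108579453, plus strand: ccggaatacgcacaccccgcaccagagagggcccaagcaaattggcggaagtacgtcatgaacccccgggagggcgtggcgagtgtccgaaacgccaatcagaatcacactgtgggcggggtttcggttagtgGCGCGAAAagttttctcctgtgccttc
Cdk2, chr10:128705052-128705211, minus strand: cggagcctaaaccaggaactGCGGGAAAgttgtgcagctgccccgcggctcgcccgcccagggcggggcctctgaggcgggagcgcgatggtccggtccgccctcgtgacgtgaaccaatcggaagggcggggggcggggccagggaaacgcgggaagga

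The same 160 bases are shown for 4 mitosis genes, with CHR matches in capitals. In all 4 a match lies within the last 30 bases before the start, close to where transcription begins. The stretches end at the start, so matches after it are not shown. Such matches, 3 to 46 bases after the start, were held by Cenpf, Kif23, Ccnb2, Ttk, Cenpa, Ndc80, Plk1, Aurka and Bub1b. Cdc20 and Ube2c act together in anaphase and had much the same values in the libraries, Kif11 is a spindle motor with other values, and Cdk1 holds an E2F match as well, left here in lower case.
Cdc20, chr4:118437344-118437503, minus strand: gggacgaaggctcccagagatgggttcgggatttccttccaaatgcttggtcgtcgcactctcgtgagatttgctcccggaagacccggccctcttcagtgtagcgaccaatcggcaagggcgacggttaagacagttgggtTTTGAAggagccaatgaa
Ube2c, chr2:164769769-164769928, plus strand: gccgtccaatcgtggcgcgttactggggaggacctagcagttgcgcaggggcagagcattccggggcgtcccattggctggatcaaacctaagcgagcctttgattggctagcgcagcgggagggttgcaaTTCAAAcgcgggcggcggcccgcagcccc
Cdk1, chr10:69352913-69353072, minus strand: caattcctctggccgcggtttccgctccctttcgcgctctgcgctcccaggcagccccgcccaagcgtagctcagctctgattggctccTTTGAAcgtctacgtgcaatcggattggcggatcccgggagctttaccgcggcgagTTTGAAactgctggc
Kif11, chr19:37376222-37376381, plus strand: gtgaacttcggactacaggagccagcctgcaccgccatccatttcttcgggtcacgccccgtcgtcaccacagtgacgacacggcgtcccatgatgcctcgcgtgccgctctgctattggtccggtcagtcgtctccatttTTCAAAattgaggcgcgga

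None of the 9 origin licensing genes passed the test, and their log2 fold changes ran from -0.20 to 0.06. Mcm2, the first of the 6 subunits of the helicase ring and the highest licensing gene, was at 566, 570.5, 546, 580.1 and 551 CPM in the DMSO libraries and 592, 525, 548 and 601 CPM in the EPZ011989 libraries. The groups overlapped, and the log2 fold change was 0.01 ± 0.06 (SE), with a 95% interval of -0.13 to 0.15. The other 5 subunits were also near 0, at 0.02 for Mcm3, 0.03 for Mcm4, 0.01 for Mcm5, -0.09 for Mcm6 and 0.01 for Mcm7. Mcm7 shares exon bases with 4 annotated neighbours, so its counts are less certain. Cdc6, the loader of the ring, was at 43.0 ± 3.11 and 44.8 ± 4.36 CPM in the control and treated libraries (log2 fold change 0.06). Cdt1, which brings the ring to origins, was at 115 ± 6.97 and 111 ± 17.1 CPM in the control and treated libraries (log2 fold change -0.05), where the wide spread with EPZ011989 came from library 2 at 85.6 CPM. Orc1, a subunit of the origin recognition complex, had the lowest value of the role (-0.20 ± 0.12 (SE)) and also the lowest level, 14.8 CPM in DMSO (adjusted p = 0.281, edgeR).

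The 4 genes that switch the helicase on all lay above 0 and none passed the test. Gins2, a GINS subunit, had the highest log2 fold change of the S phase genes. It was at 78.4, 90.9, 90.3, 99.0 and 101 CPM in the DMSO libraries and 112, 80.3, 109.7 and 136 CPM in the EPZ011989 libraries. Treated libraries 1, 3 and 4 were above every control, library 2 lay within the controls' range, and the log2 fold change was 0.25 ± 0.13 (SE) (adjusted p = 0.212, edgeR). Without EPZ011989 library 2, Gins2 rose, with a log2 fold change of 0.37 (adjusted p = 0.0101). It was not called without any other 1 library (adjusted p up to 0.577, edgeR). Cdc45, which joins the ring in the active helicase, had a log2 fold change of 0.14, Gins1 one of 0.12 and Mcm10, which helps start unwinding, one of 0.08.

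The polymerase genes and the sliding clamp lay slightly below 0 and did not pass the test. Pcna, the clamp that holds polymerases on DNA, was at 493 ± 12.8 and 468 ± 35.9 CPM in the control and treated libraries (log2 fold change -0.08), and Pole, the catalytic subunit of the leading-strand polymerase, was at 95.3 ± 5.72 and 91.1 ± 4.95 CPM in the control and treated libraries (-0.07). Pola1, the catalytic subunit of the polymerase that makes the primers, was at 127, 113, 124, 114 and 107 CPM in the DMSO libraries and 93.1, 157, 87.9 and 82.0 CPM in the EPZ011989 libraries. Treated libraries 1, 3 and 4 lay below every control and library 2 above every control. Its log2 fold change was -0.16 ± 0.17 (SE) (adjusted p = 0.576, edgeR), and without library 2 it fell, at -0.43 (adjusted p = 0.00117). Pola1 was not called without any other 1 library (adjusted p up to 0.832, edgeR).

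Rrm1 was the only one of the 49 genes that fell in the test. Rrm1 encodes the large subunit of ribonucleotide reductase, which makes the deoxynucleotides for replication, and lies on chromosome 7, 102441695 to 102469771 (GRCm38). It was at 462, 449, 439, 453 and 431 CPM in the DMSO libraries and 389.8, 428, 367 and 364 CPM in the EPZ011989 libraries. The groups did not overlap, and the log2 fold change was -0.21 ± 0.07 (SE) (adjusted p = 0.044, edgeR). Groups without overlap, treated below control, were found for 8.77% of all genes tested. Leaving out single libraries, Rrm1 passed the test only without DMSO library 5 (adjusted p = 0.0388) or EPZ011989 library 2 (adjusted p = 0.00197), and without any other 1 library the adjusted p rose to as much as 0.131. Rrm2, the small subunit whose level is known to follow S phase, was at 298 ± 15.5 and 304 ± 14.9 CPM in the control and treated libraries and its log2 fold change was 0.03 ± 0.06 (SE).

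Of the 5 genes of G1/S control, Cdk2 rose. Cdk2, the kinase that cyclins E and A bind, lies on chromosome 10, 128697939 to 128705031 and shares exon bases with Pmel. It was at 47.1, 44.7, 46.6, 41.4 and 48.6 CPM in the DMSO libraries and 53.4, 50.9, 53.8 and 56.7 CPM in the EPZ011989 libraries. Each treated library was above each control, and the log2 fold change was 0.23 ± 0.07 (SE) (adjusted p = 0.0304, edgeR). Treated libraries lay above every control in 16.1% of all genes tested. The call was lost without any 1 of 8 libraries (adjusted p up to 0.122) and remained without EPZ011989 library 2 (adjusted p = 0.0131). Of the E-type cyclins, Ccne1 was at 57.1 ± 4.71 and 58.1 ± 8.86 CPM in the control and treated libraries (0.02 on the log2 scale). Ccne2 was at 115, 109, 125, 106 and 103 CPM in the DMSO libraries and 95.1, 158, 93.9 and 82.7 CPM in the EPZ011989 libraries. Library 2 was above every control here, libraries 1, 3 and 4 were below them all, and the log2 fold change was -0.06 ± 0.17 (SE). Without library 2 Ccne2 fell (-0.31, adjusted p = 0.00972, edgeR), and without any other 1 library it was not called (adjusted p up to 0.997). E2f1, a transcription factor that activates S phase genes, was at 92.3 ± 5.61 and 94.9 ± 4.68 CPM in the control and treated libraries (0.04). E2f2, of the same family, was at 62.7, 61.9, 63.8, 60.7 and 59.8 CPM in the DMSO libraries and 58.1, 56.5, 57.9 and 55.1 CPM in the EPZ011989 libraries. The 2 groups of E2f2 did not overlap, but its log2 fold change of -0.12 ± 0.06 (SE) did not pass the test (adjusted p = 0.163, edgeR).

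**Figure D3:**
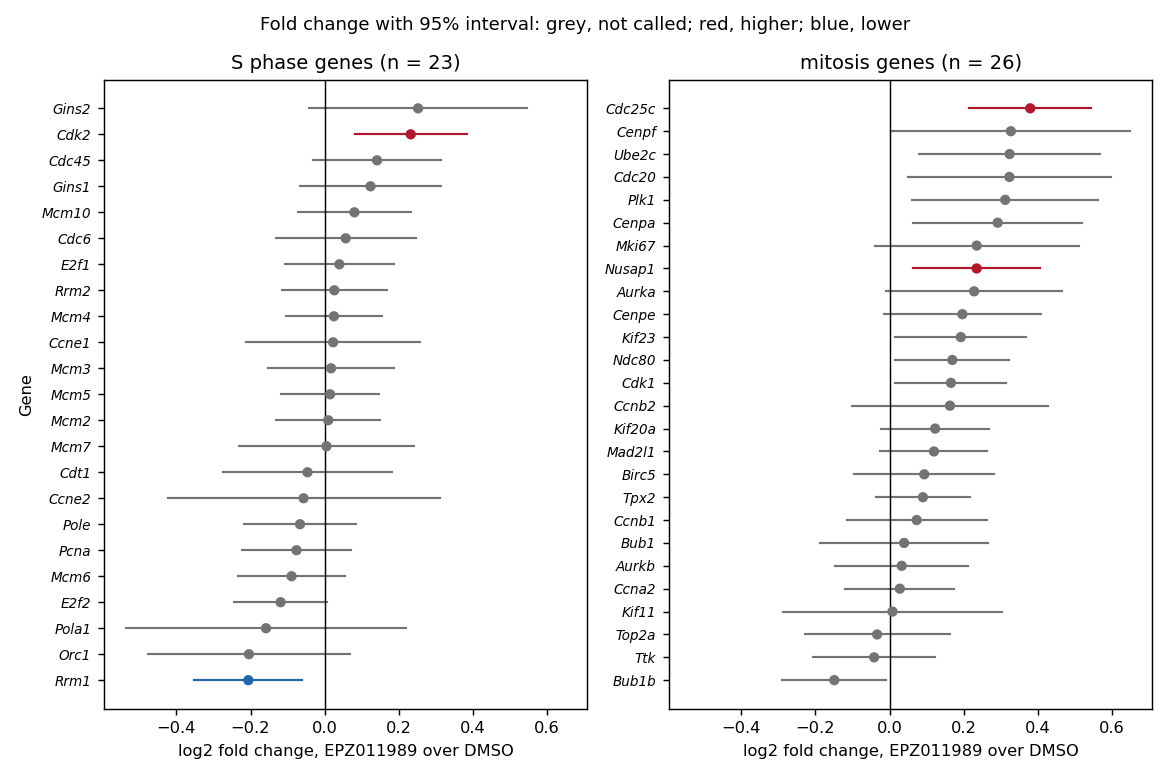
Log2 fold change, EPZ011989 over DMSO (horizontal axis), of the 23 S phase genes and the 26 mitosis genes, ordered by value, with 95% intervals from edgeR. Cdk2, Cdc25c and Nusap1 (red) were called higher and Rrm1 (blue) lower, and 23 of the 26 mitosis genes lie to the right of 0.

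Among the cyclin and Cdk1 genes that start mitosis, Cdc25c rose and had the highest log2 fold change of the 49. Cdc25c encodes a phosphatase that removes the inhibitory phosphates of Cdk1. It was at 40.3, 43.8, 38.5, 39.7 and 39.7 CPM in the DMSO libraries and 53.4, 46.8, 56.9 and 53.1 CPM in the EPZ011989 libraries. Each treated library was above each control, and the log2 fold change was 0.38 ± 0.07 (SE) (95% interval 0.22 to 0.54, adjusted p = 0.00347, edgeR). Cdc25c was still called without any 1 library, with adjusted p between 4.39e-04 and 0.0284. It shares exon bases with the predicted gene Gm3550. Cdk1, the kinase of mitosis, was at 211 ± 12.6 and 237 ± 14.2 CPM in the control and treated libraries, a log2 fold change of 0.17 ± 0.07 (SE) (adjusted p = 0.106, edgeR). The cyclins that bind it did not pass the test, with log2 fold changes of 0.03 for Ccna2, 0.07 for Ccnb1 and 0.16 for Ccnb2.

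None of the mitotic kinases and their activators passed the test, with Plk1 nearest to it. Plk1, a kinase of centrosomes, kinetochores and mitotic entry, was at 157, 168, 141, 165 and 151 CPM in the DMSO libraries and 207, 145, 206 and 219.6 CPM in the EPZ011989 libraries. Treated libraries 1, 3 and 4 were above every control and library 2 was near the lowest control. Its log2 fold change was 0.31 ± 0.11 (SE) (adjusted p = 0.0712, edgeR), and without library 2 it rose, at 0.42 (adjusted p = 0.000416). Plk1 was not called without any other 1 library (adjusted p up to 0.247, edgeR). Aurka, the centrosome kinase, was at 99.1 ± 5.54 and 116 ± 19.4 CPM in the control and treated libraries (0.23 on the log2 scale). Aurkb and Birc5 (survivin), 2 parts of the chromosomal passenger complex at the centromere, had log2 fold changes of 0.03 and 0.09. That of Tpx2, which activates Aurora A on the spindle, was 0.09.

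The anaphase pair Cdc20 and Ube2c showed the same order of libraries in outline, and neither was called. Cdc20, the activator of the anaphase-promoting complex, was at 239, 252, 218, 229.6 and 238 CPM in the DMSO libraries and 301, 209, 335 and 333 CPM in the EPZ011989 libraries. Ube2c, the ubiquitin-conjugating enzyme that works with this complex, was at 246, 259, 229, 248 and 260.5 CPM in the DMSO libraries and 311, 234, 341 and 358 CPM in the EPZ011989 libraries. In both genes libraries 1, 3 and 4 were above every control, and library 2 lay below every control for Cdc20 and within their range for Ube2c. Their log2 fold changes were 0.32 ± 0.12 (SE) and 0.32 ± 0.11 (SE) (adjusted p = 0.0853 and 0.0565, edgeR). Without library 2 both rose, at 0.45 and 0.43 (adjusted p = 0.000193 and 0.000299). Neither was called without any other 1 library (adjusted p up to 0.241 for Cdc20 and 0.192 for Ube2c, edgeR). Exons of both overlap a neighbour, Elovl1 for Cdc20 and Tnnc2 for Ube2c.

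Spindle checkpoint genes, whose products hold anaphase until every kinetochore is attached, were centred on 0. Bub1 was at 0.04, Mad2l1 at 0.12 and Ttk, the kinase Mps1, at -0.04 on the log2 scale. Bub1b, which encodes the checkpoint protein BubR1, had the lowest log2 fold change of the mitosis genes, -0.15 ± 0.06 (SE). It was at 156, 141, 137, 149.8 and 135 CPM in the DMSO libraries and 127, 132, 135 and 125 CPM in the EPZ011989 libraries. The groups overlapped and the adjusted p was 0.119 (edgeR).

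Of the kinesin and spindle genes, Nusap1, which binds and bundles spindle microtubules, rose and lies on chromosome 2, 119618298 to 119651244. It was at 123, 124, 123, 115 and 123 CPM in the DMSO libraries and 132, 168, 138 and 134 CPM in the EPZ011989 libraries. Each treated library was above each control, with library 2 far above the other 3, and the log2 fold change was 0.23 ± 0.08 (SE) (adjusted p = 0.0497, edgeR). Nusap1 was still called without EPZ011989 library 2 (adjusted p = 0.0413) or library 4 (adjusted p = 0.0412). Its log2 fold change was 0.14 without library 2, and without any of the other 7 libraries the adjusted p was as high as 0.126. Its exons overlap those of Oip5. Kif11, the motor that pushes spindle poles apart, was at 235, 213, 213, 210.2 and 199 CPM in the DMSO libraries and 201, 293, 191 and 174 CPM in the EPZ011989 libraries. Library 2 was above every control, libraries 3 and 4 were below them all, and the log2 fold change was near 0 (0.01 ± 0.13 (SE)). Without library 2 it was -0.19 and just missed the threshold (adjusted p = 0.0504, edgeR). Kif20a and Kif23, motors of the central spindle and cytokinesis, had log2 fold changes of 0.12 and 0.19.

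All 4 centromere and kinetochore genes lay above 0, with log2 fold changes of 0.17 to 0.33, and none was called. Cenpa, the histone H3 variant that marks centromeres, was at 123, 138, 125, 127 and 138 CPM in the DMSO libraries and 153, 126, 173 and 185 CPM in the EPZ011989 libraries. Libraries 1, 3 and 4 were above every control, and the log2 fold change was 0.29 ± 0.10 (SE) (adjusted p = 0.0634, edgeR). Cenpf, a large kinetochore protein, was at 424, 359, 384, 379 and 352 CPM in the DMSO libraries and 445, 653, 452 and 354 CPM in the EPZ011989 libraries. Here library 2 was the highest, and the log2 fold change of 0.33 ± 0.15 (SE) had an adjusted p of 0.137. Cenpf and the kinetochore motor Cenpe were called higher without EPZ011989 library 4 (adjusted p = 0.0242 and 0.0335, edgeR), whereas all libraries together gave a log2 fold change of 0.20 for Cenpe. Without library 2 neither passed the test, at 0.13 for Cenpf (adjusted p = 0.287) and 0.10 for Cenpe (adjusted p = 0.344). That of Ndc80, which grips microtubules, was 0.17. The 2 genes of chromosome structure were the highest of the 49 in CPM. Mki67, the proliferation antigen Ki-67, was at 835, 747, 752, 869.5 and 737 CPM in the DMSO libraries and 917, 1204, 833 and 755 CPM in the EPZ011989 libraries. Library 2 was above the rest, library 4 lay among the controls, and the log2 fold change was 0.23 ± 0.12 (SE) (adjusted p = 0.214, edgeR), which was 0.08 without library 2 (adjusted p = 0.487). Top2a, which untangles sister DNA, was at 876 ± 40.2 and 855 ± 111 CPM in the control and treated libraries, a log2 fold change of -0.03.

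**Figure D4:**
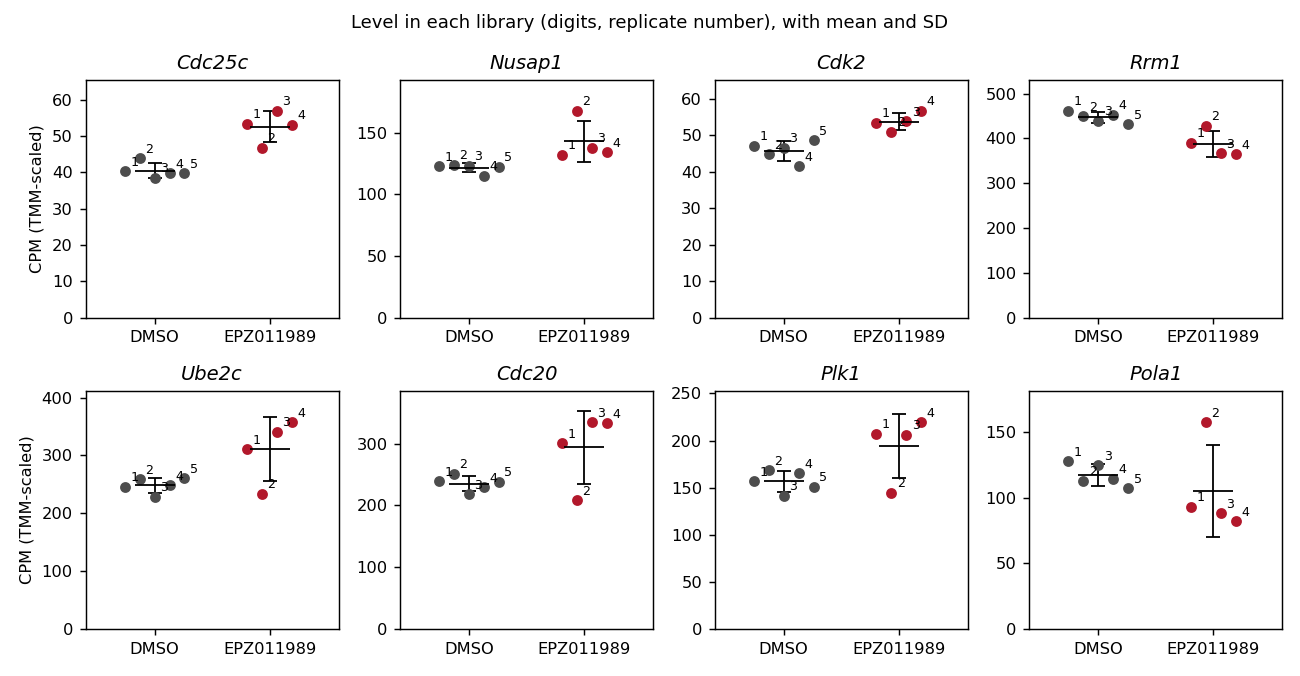
CPM (vertical axis, from 0) of 8 genes in each DMSO (grey) and EPZ011989 (red) library, labelled by replicate number, with mean and SD as bars. Cdc25c, Nusap1, Cdk2 and Rrm1 show no overlap between groups. In Cdc20 and Pola1 library 2 lies on the other side of the controls from the remaining EPZ011989 libraries. In Ube2c and Plk1 library 2 lies within the range of the controls, and the remaining EPZ011989 libraries lie above it.

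EPZ011989 library 2 was the highest or lowest treated library for most of these genes. It was more often the highest in genes with long transcripts and the lowest in genes with short ones. It was above all 3 others for 18 of the 49 genes and below all 3 for 23. Such a rank was not particular to library 2, and the other libraries were not counted this way. EPZ011989 library 4 was the highest for Mcm2, Gins2, Cdk1 and Cenpa, among others, and the lowest for Pola1, Rrm1, Kif11 and Cenpf, among others. The values that follow are again those of library 2. In the 24 genes with the longer transcripts (3431 to 11130 bases) it was above the others for 11 and below for 7, with a median ratio to their mean of 1.03. In the 25 with the shorter ones (1087 to 3421 bases) it was above for 7 and below for 16, with a median of 0.928. Cdc20, of 1793 bases, stood at 0.65 times the mean of the others, and Cenpf, of 11130 bases, at 1.56 times. Across the 49 genes, Spearman's rho between length and the deviation of a library from the others of its group was 0.513 for EPZ011989 library 2 and -0.274, -0.312 and -0.462 for libraries 1, 3 and 4. The DMSO libraries had values of 0.347, -0.642, 0.346, 0.220 and -0.294. Over the 9344 genes of at least 10 CPM the values were 0.0798, 0.646, -0.478 and -0.683 for the treated libraries and 0.667, -0.404, 0.472, -0.0436 and -0.677 for the controls, so a dependence on length was present in both groups and not only in these genes. These are descriptions across genes that share libraries. The median coefficient of variation of the mitosis genes was 5.45% in DMSO, 12.5% with EPZ011989, and 5.53% with EPZ011989 without library 2. For the S phase genes it was 5.998%, 7.65% and 5.25%.

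**Figure D5:**
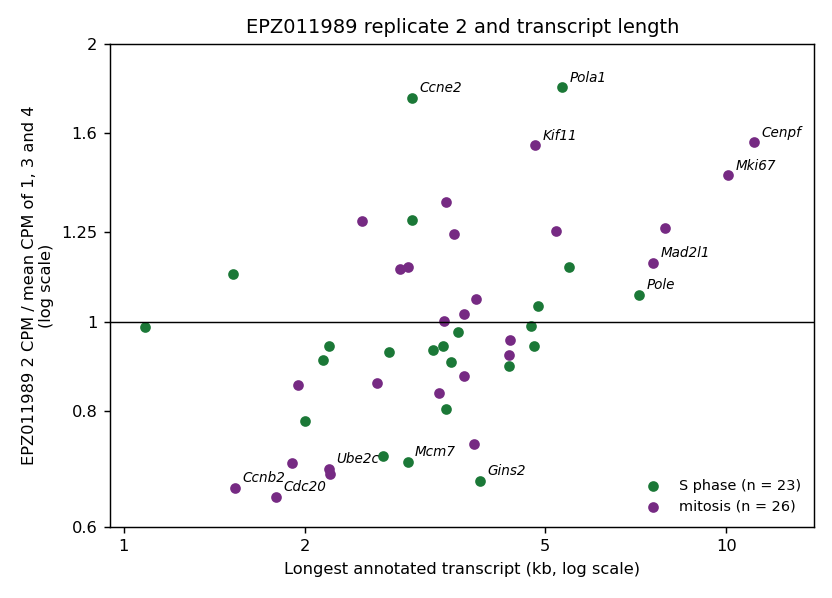
Level in EPZ011989 library 2 divided by the mean of libraries 1, 3 and 4 (vertical axis, log scale) against the longest annotated transcript (horizontal axis, kb, log scale) for the 49 genes. Cdc20 and Ube2c, with short transcripts, lie below 1, and Cenpf and Mki67, with long ones, lie above it. Many genes go the other way, such as Ccne2 (3006 bases, 1.75) and Gins2 (3900 bases, 0.67). The median was 1.03 in the 24 genes with longer transcripts and 0.928 in the 25 with shorter ones.

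Without EPZ011989 library 2, 10 of the 26 mitosis genes were called higher and none lower, against 15.4% higher and 22.9% lower among the genes of at least 10 CPM (19.7% and 15.9% of all genes tested). Besides Cdc25c, Cdc20, Ube2c, Plk1 and Nusap1 these were Cenpa (0.38), Aurka (0.33), Ccnb2 (0.28), Cdk1 (0.17) and Kif20a (0.16). Of these 10, only Cdc25c and Nusap1 were also called when another single library was left out. Of the 23 S phase genes, Gins2 and Cdk2 were called higher, and Pola1, Ccne2 and Rrm1 lower. When a trend on transcript length was instead removed from every library, with all 9 kept, 9 mitosis genes were called higher and none lower, against 13.5% and 18.1% of the genes of at least 10 CPM. They were Cdc25c (0.38), Cenpf (0.29), Cdc20 (0.31), Ube2c (0.31), Plk1 (0.30), Cenpa (0.30), Mki67 (0.21), Aurka (0.22) and Nusap1 (0.24), while Cdk2 and Rrm1 remained the only S phase calls. Whether length itself sets the deviation of library 2 was not tested. In both settings the mitosis calls were higher ones only. When both changes were made together, an alternative chosen after the data were seen, 14 mitosis genes were called higher and 2 lower, against 18.8% and 29.3% of the genes of at least 10 CPM, and Kif11 was one of the 2, at -0.15 (adjusted p = 0.0114, edgeR).

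Per kilobase of the longest annotated transcript, Pcna was the highest of the 49 in DMSO, at 325 CPM per kb. This scale compares genes only roughly, since the longest transcript need not be the one expressed and the dependence on length differed between libraries. Top2a (168), Mcm2 (161), Rrm2 (136), Mcm3 (135) and Cdc20 (131) came next on this scale. The lowest were the origin factors Orc1 (4.90) and Cdc6 (8.96). Both groups thus held abundant genes.

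Wider lists of the same pathways were examined for the genes around the 49. Of 41 other replication genes, 2 rose and 5 fell, with a median log2 fold change of -0.00324. The 17.1% called (12.2% lower) stood near or below the 21.3% (11.4% lower) of the genes of at least 10 CPM. Those that fell were Pole3, a small subunit of polymerase epsilon (a mean of 93.2 ± 3.20 CPM to one of 74.5 ± 4.53 CPM, adjusted p = 0.0035, edgeR), Timeless of the fork protection complex (-0.27 on the log2 scale), the clamp loader Rfc1 (-0.31) and the origin factors Orc2 (-0.34) and Orc3 (-0.33). The genes that rose were Uhrf1, which guides maintenance DNA methylation (0.24), and Pole4 (0.23). Of 16 other nucleotide synthesis genes, 5 fell, none rose, and 14 lay below 0, with a median of -0.16. Cad, which starts pyrimidine synthesis, went from a mean of 426 ± 33.9 CPM to one of 319 ± 40.2 CPM (-0.42 ± 0.10 (SE) on the log2 scale, edgeR adjusted p = 0.00936). The other 4 were the purine synthesis genes Ppat (-0.52), Gmps (-0.28) and Paics (-0.24) and the CTP synthase Ctps (-0.24). Exons of Ppat and Paics overlap each other on opposite strands, so the counts of both are less certain. Their 31.2% called lower stood beside 11.4% of the genes of at least 10 CPM.

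Among 17 E2F, RB and DREAM factors, 1 rose and 2 fell, 17.6% of the list against 21.3% of the genes of at least 10 CPM. Rb1, the retinoblastoma gene, rose from a mean of 29.7 ± 3.39 CPM to one of 39.6 ± 6.09 CPM (adjusted p = 0.0241, edgeR), and E2f4, the main E2F of the DREAM complex, fell from a mean of 98.3 ± 2.36 CPM to one of 79.1 ± 8.67 CPM (adjusted p = 0.0137, edgeR). Tfdp2, a partner of E2F proteins, also fell (-0.38 on the log2 scale). Of 63 other mitosis genes 60 were tested, of which 7 rose and 1 fell, with a median of 0.08. The 11.7% that rose were near the 9.87% of genes of at least 10 CPM that did, and the 13.3% called in all were fewer than the 21.3% of that background. Pttg1, securin, which keeps separase inactive until anaphase, rose from a mean of 23.7 ± 3.99 CPM to one of 36.9 ± 7.10 CPM (0.64 ± 0.15 (SE) on the log2 scale, edgeR adjusted p = 0.0107). Ccnf, cyclin F, rose from a mean of 78.2 ± 4.90 CPM to one of 107 ± 8.91 CPM (adjusted p = 0.00126, edgeR). The kinesins Kif18b (0.42), Kif2c (0.38) and Kifc1 (0.23) and the spindle protein Troap (0.39) rose as well. Outside the rule for naming genes, and named after their values were seen, Orc3 above, the centralspindlin gene Racgap1 (0.25) and the Cdk phosphatase gene Cdc25a, the 1 mitosis gene of this list that fell (-0.24), complete the calls. Of the 23 called genes, 9 were still called without any 1 library (Pole3, Timeless, Cad, Gmps, Paics, E2f4, Ccnf, Kif18b and Pttg1). Rfc1, Orc2, Ppat and Tfdp2 missed the threshold without EPZ011989 library 3 (adjusted p = 0.0503, 0.0623, 0.0507 and 0.0695, edgeR). Kif2c missed it without DMSO library 3 or EPZ011989 library 1 (up to 0.0669), and Rb1 without DMSO library 2 or 5 or EPZ011989 library 1 (up to 0.0819). Troap, Ctps, Orc3, Uhrf1, Kifc1, Cdc25a, Pole4 and Racgap1 missed it without any 1 of 5 to 8 libraries (adjusted p up to 0.191). Over the 4 lists 10 genes rose and 13 fell, counts that were 17 and 9 with upper-quartile scaling, 19 and 8 with library size alone, and 25 and 25 without EPZ011989 library 2. These lists, like the 49 genes, were chosen with earlier results of these libraries known.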

How the data were processed

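The 9 libraries came from αTC1 cells kept for 7 days with DMSO (5) or 4 µM EPZ011989 (4), with groups taken from the titles. Illumina libraries were made from poly-A RNA, per the labels' protocols. HISAT2, StringTie, DESeq2 and mm10 are named in the submitters' processing notes, with neither roles nor versions. Whether counting used strand is not given in the sources used here. Whole-number gene counts, as the authors deposited them, were tested. A second table that the authors deposited holds a normalized signal on a linear scale. Of its 20796 rows, 20590 were matched to the first table by symbol. In these rows each value above 0 was a count of the first table over 1 factor per library. The other rows were not checked.

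Genes were filtered with filterByExpr, scaled by TMM and fitted in edgeR 4.0.16 (R 4.3.3) by the robust quasi-likelihood method with treatment as the single term. P-values over 14754 genes were adjusted after Benjamini and Hochberg, and genes under 0.05 were called. The edgeR fit was tested on simulated data. CPM were computed with TMM-corrected library sizes, and ± after a mean is the SD over libraries. The SE of a change is its absolute log2 value over the root of F, and intervals use edgeR's total degrees of freedom. Total counts were 60274140 to 74651782. A count of 4 was more frequent in the table than 2 or 3 (3046 values against 2108 and 2160), so fragments may add several counts, and counts divided by 4 were tried as well. No 2 libraries matched within sampling noise (chi-square per degree of freedom of 4.19 or more). Transcript lengths, positions and exon overlaps come from GENCODE on GRCm38, the build that mm10 names. Of the 49 genes, 15 share exon bases with another gene, between which reads could be split. They are Ccna2, Ccne2, Cdc20, Cdc25c, Cdc45, Cdk2, Gins2, Kif20a, Mcm7, Nusap1, Orc1, Plk1, Pole, Top2a and Ube2c. Among the called genes of the wider lists, Ccnf, Orc2, Paics, Ppat, Rb1, Timeless and Troap do so too. For genes with several starts in the promoter table, the first listed was used.

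All 49 genes are named, with values per library for called genes and those the text turns on, and from each wider list up to 6 called genes of smallest p. The members and lists were chosen with earlier results of these data known. Alternatives were other scalings (RLE, upper-quartile, library size), other filters, DESeq2 1.42.0, limma 3.58.1 on counts and on log2 of the normalized values plus 1 or 10, removal of a trend on transcript length, a block for replicate number, and the omission of libraries.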

Additional observations from a re-analysis of the deposited data

Results flagged for a closer look

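In each gene and group, the distance of the highest and of the lowest library from its nearest neighbour was divided by the range of the group, over 98 groups in all. A ratio above Dixon's 95% critical value marked a library far from the others, which chance gives in about 1 in 20 groups, and 6 were found. EPZ011989 library 2 was the lowest for Cdt1 (ratio 0.879, 85.6 CPM) and the highest for Pola1 (0.852, 157 CPM), Ccne2 (0.836, 158 CPM) and Nusap1 (0.835, 168 CPM). DMSO library 1 was the highest for Top2a (0.735, 945 CPM), and DMSO library 4 the lowest for Nusap1 (0.825, 115 CPM).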

How the results depend on the processing

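Over 23 alternatives, Cdc25c was called in 22 and missed the threshold only with the replicate block, Cdk2 was called in 13, Rrm1 in 12 and Nusap1 in 9. With all libraries and the stated settings, 1 S phase gene was higher and 1 lower, and 2 mitosis genes were higher and 0 lower. In the wider lists 10 genes were higher and 13 lower, and over all genes 2388 were higher and 1174 lower. At an unadjusted p under 0.05 (edgeR) were 11 of the 26 mitosis genes, beside 3054 of the 9344 genes of at least 10 CPM. Without the filter, 0 S phase genes were higher and 0 lower, and 1 mitosis gene was higher, against 2354 higher and 1081 lower over all genes. RLE scaling, limma-voom, and limma on log2 values with a pseudocount of 1 or 10 each left 1 mitosis gene higher. Over all genes they gave 2294 to 2560 higher. Upper-quartile scaling gave 0 S phase genes lower, 7 mitosis genes higher (median 0.22) and 17 list genes higher, against 2735 higher and 776 lower over all genes. Library size alone gave 0 S phase genes lower, 8 mitosis genes higher (median 0.21) and 19 list genes higher with 8 lower. Over all genes it gave 2685 higher and 865 lower. Under these 2 scalings the median of all genes moved from 0.03 to 0.08. Removing the length trend gave 9 mitosis genes higher, against 2811 higher and 1821 lower over all genes. Without EPZ011989 libraries 2 and 4, 2 S phase genes were higher and 4 lower, 9 mitosis genes were higher, and 17 list genes were higher and 16 lower. Over all genes 2497 were then higher and 1752 lower.

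Removing the length trend together with library 2 was chosen after the data were seen. It gave 2 S phase genes higher and 5 lower, 14 mitosis genes higher and 2 lower, and 33 list genes higher and 31 lower. Over all genes 3295 were then higher and 3026 lower. Kif11 reversed there, at -0.15 against 0.01. Leaving out 1 library at a time gave 0 to 2 S phase genes higher and 0 to 3 lower (median -0.04 to 0.04), 1 to 10 mitosis genes higher and 0 lower (median 0.12 to 0.18), 3 to 25 list genes higher and 6 to 25 lower, and 1861 to 2939 genes higher and 781 to 2377 lower overall. The highest of these counts came without EPZ011989 library 2.

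The replicate block gave 0 S phase genes higher and 0 lower, 0 mitosis genes higher, 3 list genes higher and 3 lower, and 1550 genes higher and 471 lower overall. The deviations of the 4 same-numbered pairs correlated at -0.451 to 0.160. Those of DMSO library 1 correlated at 0.704 with EPZ011989 library 2 and at -0.757 with library 4. Because the deviations also follow transcript length, they cannot tell whether same-numbered libraries were paired, and the labels do not say. The causes of the shifts in the counts of called genes were not tested. At the spread between these libraries, 2 of the 49 genes (Cenpf and Cdc20) had intervals that reached beyond 1.5-fold, and smaller changes were not detectable in many.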
